A study of Mus musculus with 9 samples.

Results

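The transcription factors that commit cells to skeletal muscle were examined across 9 expression arrays of mouse embryonic fibroblasts (MEFs). The members were chosen by name: the muscle regulatory factors Myod1, Myf5, Myf6 and Myog, the paired-box factors Pax3 and Pax7, and the Mef2 factors Mef2a, Mef2c and Mef2d. All 9 genes were on the array, and they were measured by 24 of its 45101 probe-sets, out of 18194 named genes in all. A probe-set is a group of short probes against 1 transcript, and its log2 signal rises by 1 for each doubling.

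The study compared Tgif1 null MEFs at passage 3 (Tgif1 -/-, null P3) with wild type MEFs at passage 5 (P5) and at passage 3 (P3), with 3 arrays each. Tgif1 is a homeodomain repressor that works through Smad proteins among other partners, and the question was whether its loss changes transcripts in the way that longer culture does. The primary cells came from embryos at day 13.5, on a mixed C57BL/6J x 129Sv/J background in all 3 groups, and each array held RNA from an independent culture with no added agent. Such MEFs are a mixed population from most of the embryo rather than 1 purified cell type, and the null and P5 groups differ in genotype and passage together.

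In skeletal muscle development, Pax3 and Pax7 maintain the progenitor pool, Myf5 and Myod1 commit progenitors to myoblasts, and Myog drives myoblasts into terminal differentiation. The muscle regulatory factors are basic helix-loop-helix proteins that pair with E proteins on the E-box sequence CANNTG. Mef2 proteins are MADS-box factors expressed in many tissues, which bind an A and T rich site and act together with the muscle regulatory factors on muscle genes.

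The lowest value on every array was 2.23, array medians ranged from 2.48 to 2.50, and 18127 to 18258 probe-sets an array were above 4. Tgif1 itself had signals of 2.48, 3.21 and 2.50 in the null MEFs, against 10.06, 10.07 and 10.18 at P5 and 9.82, 9.95 and 9.72 at P3, which matched the labelled genotype of each array and does not check the passage labels. Of 12 fibroblast markers, 11 had a mean signal above 4 in the null MEFs, 12 at P5 and 11 at P3, with Vim at 15.22, 15.33 and 15.17 in that order of groups.

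Myog and Mef2a gave the differences described below, and their promoters are shown because the sequences that these factor families recognise lie in them. Both come from RefSeq (assembly GRCm38.p6) and span 250 bases before to 50 bases after the annotated start of the gene, read 5′ to 3′ on the gene's own strand. Capitals mark the E-box CANNTG and a MEF2 core, searched as TA, then 4 letters that are each A or T, then TA. Myog lies on chromosome 1 (chr1:134289754-134290053, plus strand) and Mef2a on chromosome 7 (chr7:67372809-67373108, minus strand).
Myog: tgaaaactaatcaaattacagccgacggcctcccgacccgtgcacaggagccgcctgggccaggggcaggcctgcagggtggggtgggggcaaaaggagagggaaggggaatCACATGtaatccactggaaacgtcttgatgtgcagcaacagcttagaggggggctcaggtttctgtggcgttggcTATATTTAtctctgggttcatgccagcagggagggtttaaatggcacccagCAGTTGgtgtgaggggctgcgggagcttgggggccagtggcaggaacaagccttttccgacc
Mef2a: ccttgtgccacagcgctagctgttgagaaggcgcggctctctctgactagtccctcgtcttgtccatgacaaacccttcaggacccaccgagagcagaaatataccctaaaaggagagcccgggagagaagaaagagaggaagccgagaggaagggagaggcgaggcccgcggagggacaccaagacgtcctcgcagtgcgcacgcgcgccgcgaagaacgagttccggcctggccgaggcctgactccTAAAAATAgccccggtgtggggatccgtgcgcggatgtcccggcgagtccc

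The Myog window held E-boxes at -138 to -133 (CACATG) and -12 to -7 (CAGTTG), and a MEF2 core at -63 to -56 (TATATTTA), counted from 1 at the start base with no 0. The Mef2a window held no E-box and a MEF2 core from -1 to 7 (TAAAAATA). E-boxes on either strand were present in 72.3% of 32851 promoters of this length and the MEF2 core in 9.32%, so an E-box match by itself was common. Promoters were found for 6 of the 9 members, namely Myog, Mef2a, Mef2c, Mef2d, Pax7 and Myf5, and an E-box was present in 3 of their 8 promoters (37.5%) and a MEF2 core in 3. The letters TGTCA, which Tgif1 and related homeodomain proteins recognise, were in 45.4% of all promoters and in 3 of the 8, those of Mef2a, Pax7 and 1 of Mef2c. These are matches of letters and no measurement of binding.

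Myog was the only member whose brightest probe-set differed between the null and P3 MEFs past the test, and it was higher in the null. Its probe-set (1419391_at) had log2 signals of 6.21, 5.34 and 5.61 in the 3 null cultures, against 2.71 on each of the 3 P5 arrays and 3.54 on each of the 3 P3 arrays. Every null culture was above every wild type culture, and the first null culture was the highest. The mean was 5.72 ± 0.45 in the null, 2.71 at P5 and 3.54 at P3 (SD, n = 3 each). The null exceeded P3 by 2.18 (SE 0.21, 95% interval 1.68 to 2.67), an estimated 4.52-fold, with a limma adjusted p of 0.0103. It exceeded P5 by 3.01 (SE 0.21, 95% interval 2.51 to 3.50), an estimated 8.04-fold, with a limma adjusted p of 0.000936. The wild type values repeat exactly and were not shown to lie above the background of this probe-set. The sizes may therefore be underestimates, which the intervals do not cover.

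The P5 arrays were 0.83 below the P3 arrays in Myog signal (SE 0.21, 95% interval -1.32 to -0.33), and the groups did not overlap. The limma adjusted p of 0.0630 missed the threshold of 0.05. Of the alternatives run on this probe-set, 10 missed it too, at up to 0.178 without the second P5 culture. The other 6 passed and are given next. Without the first or the second null culture, which share the estimate of the spread, the adjusted p was 0.00332 or 0.0391. It was 0.0446 with median centring. With a filter on low signals (only probe-sets above 4 on at least 3 arrays tested) it was 0.0107. Myog was above 4 only on the 3 null arrays, so it met this filter through the null alone. It also passed with the F test rule, where the F test spans all 3 groups and the null was far above the others. With the 6 wild type arrays alone it passed as well, but its spread within groups was 0 there, which fixed the outcome. The filter, the F test rule and the 6 arrays alone therefore cannot decide the P5 to P3 difference. Apart from these alternatives, the fit by gene given below passed at a limma adjusted p of 0.0415. Myog has 1 probe-set, so its values were the same there, with the same lack of spread in the wild type groups. Within each wild type group the 3 Myog values were identical, so the spread in all 3 comparisons came from the null arrays. The wild type groups still entered the shared estimate as if measured without spread, which lowers it. The SE and adjusted p-values of Myog may therefore be too small and its intervals too narrow. Identical values (within 1e-06) in the P3 arrays and in the P5 arrays were found for 15352 probe-sets, most of them at the same level in both groups. The levels of the 2 passages differed by more than 0.01 in 4 of these and by more than 0.5 in 1, which was Myog. The origin of these repeated values was not tested, and they give no order among the wild type cultures. Without the P5 arrays in the fit, the null to P3 adjusted p for Myog was 0.0868, with the difference still 2.18.

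**Figure D1:**
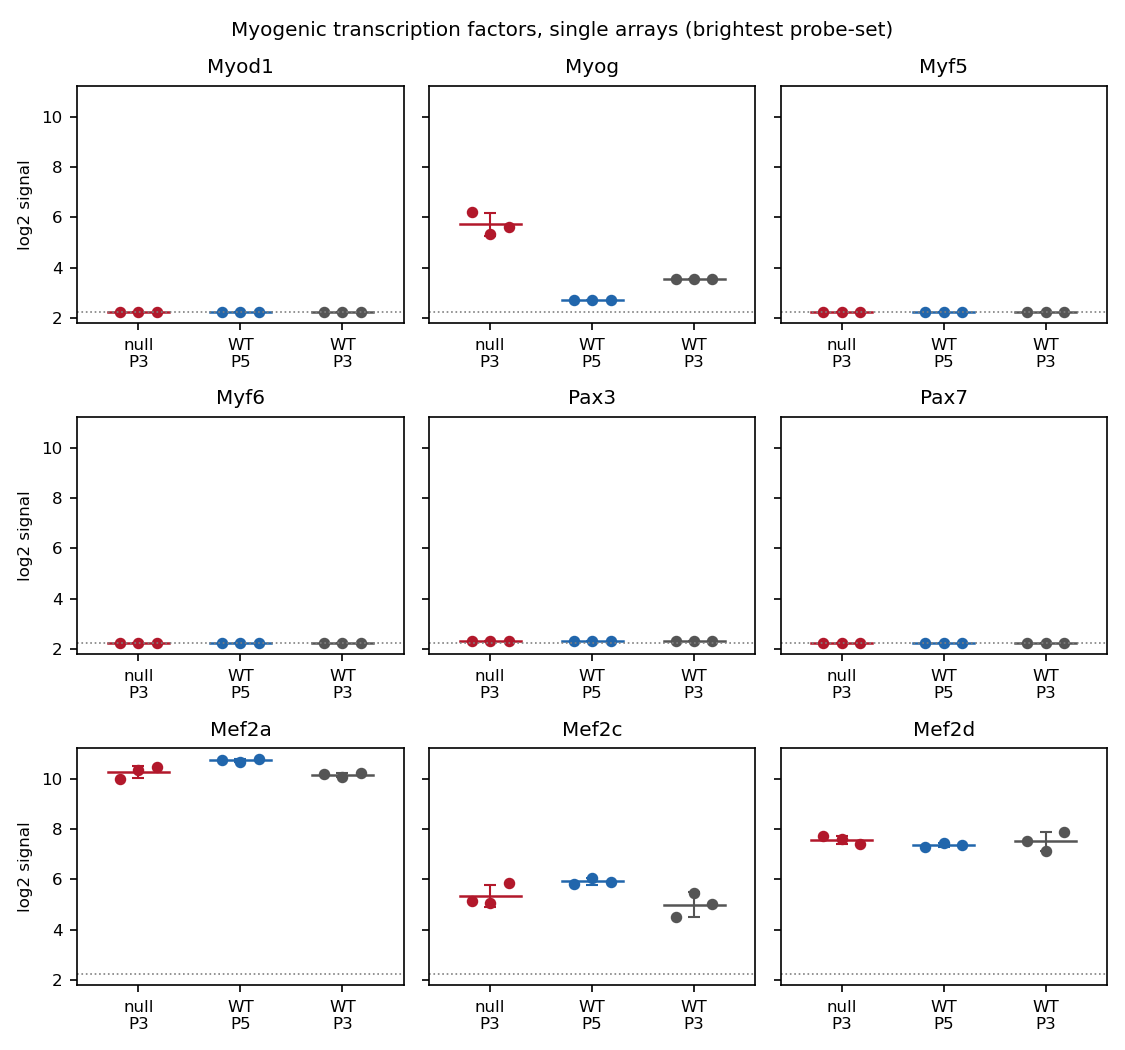
Log2 signal of the brightest probe-set of each member on single arrays (points, replicates 1 to 3 from left to right), with the group mean (line) and SD (bar), for null P3, wild type P5 and wild type P3 MEFs on 1 shared axis; the dotted line is the lowest value, 2.23. Myog was at 5.34 to 6.21 in the null and at 2.71 and 3.54 in the wild type groups, Myod1, Myf5, Myf6, Pax3 and Pax7 lay on or near the dotted line, and the Mef2 genes were well above it in all groups.

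The other muscle regulatory factors and the Pax factors gave no signal that moved with genotype or passage. Myod1 (2 probe-sets) and Myf5 (1), the factors that commit cells to the myoblast lineage, had highest values of 2.23 on any of the 9 arrays. Myf6, a factor of late differentiation, was at 2.23 on all 9 arrays. Pax7, which marks satellite cells, also had a highest value of 2.23 over its 2 probe-sets. Pax3, which acts in progenitors that migrate from the somites, had a highest value of 2.32 over its 3 probe-sets, and the most variable of them spanned 0.0257. Each of these 9 probe-sets spanned less than 0.1 across the arrays, as did 43.7% of all probe-sets, and 4 of them were at the lowest value throughout. A decrease could not be seen at this level, and a low transcript level in all groups cannot be told apart from probes that do not report it.

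Mef2a was higher at P5 than at P3 and did not differ past the test between the null and P3. Its brightest probe-set (1427185_at) had signals of 10.00, 10.33 and 10.47 in the null and 10.74, 10.67 and 10.79 at P5, against 10.18, 10.08 and 10.21 at P3. Every P5 culture was above every other culture, and the null cultures spread over and around the P3 range. The P5 signal exceeded P3 by 0.58 (SE 0.12, 95% interval 0.29 to 0.86, limma adjusted p = 0.0348). The null differed from P3 by 0.11 (95% interval -0.18 to 0.40, limma adjusted p = 0.919).

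Probe-set 1421252_a_at of Mef2a gave 8.56, 9.08 and 9.31 in the null and 9.76, 9.64 and 9.64 at P5, against 8.50, 8.87 and 8.51 at P3. Again the P5 cultures were the highest without overlap. The P5 signal was 1.06 above P3 (SE 0.21, 95% interval 0.56 to 1.55, limma adjusted p = 0.0283), a 2.08-fold difference. Probe-set 1425426_a_at was close to background, with 2.33 on all 3 null arrays, 3.22, 2.62 and 3.01 at P5, and 2.33, 2.33 and 2.23 at P3. Its P5 signal exceeded P3 by 0.65 (SE 0.14, limma adjusted p = 0.0414), which on the side of P3 rests on values at or near the lowest of the array.

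A further pair of Mef2a probe-sets had P5 values above all P3 values without passing the test. Probe-set 1452347_at had 9.15, 9.91 and 10.01 in the null and 10.45, 10.45 and 10.44 at P5, against 9.33, 9.88 and 9.29 at P3, and its P5 to P3 difference was 0.95 (SE 0.26, limma adjusted p = 0.0911). Probe-set 1427186_a_at had 8.67, 9.41 and 9.88 in the null and 10.22, 10.05 and 10.21 at P5, against 8.87, 9.53 and 8.89 at P3, and the difference was 1.07 (SE 0.33, limma adjusted p = 0.127). Without the first null culture these adjusted p-values were 0.0276 and 0.0488, and with the filter on low signals 0.0162 and 0.0244. In both, the P5 cultures lay close together while the null and P3 cultures were spread out, and the second P3 culture was the highest of its group. The last probe-set, 1442623_at, stayed between 2.38 and 2.61 on all arrays.

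Between the null and P3, the 6 Mef2a probe-sets differed by 0.03 to 0.36, with adjusted p-values from 0.768 to 1. Set against P5, 5 of the 6 were lower in the null without overlap, by 0.47 to 0.84 on the log2 scale, and their adjusted p-values of 0.0554 to 0.253 all missed the threshold. With the filter on low signals, 3 of them were lower in the null past the test, 1427185_at at 0.0185, 1421252_a_at at 0.0247 and 1452347_at at 0.0432, and with median centring 1425426_a_at was, at 0.0380. Without the last null culture 1427185_at passed at 0.0498, and without the second P5 culture 1425426_a_at passed at 0.00786. Under every other alternative these probe-sets missed, at up to 0.210 for 1427185_at, 0.317 for 1421252_a_at, 0.407 for 1452347_at and 0.166 for 1425426_a_at. The 4 bright probe-sets varied together over the 9 arrays, with Pearson correlations of 0.892 to 0.985, as a description of probe-sets that share a gene and its samples. The calls between P5 and P3 were sensitive to single cultures: without any 1 of the 6 wild type cultures, or without the second null culture, the adjusted p of 1427185_at was between 0.0665 and 0.113. For 1421252_a_at it was above 0.05 without the second null culture, the first P3 culture, the last P3 culture, or any 1 of the P5 cultures, at 0.0575 to 0.106. For 1425426_a_at it was 0.0676 to 0.137 without any 1 culture other than the second P5 culture.

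**Figure D2:**
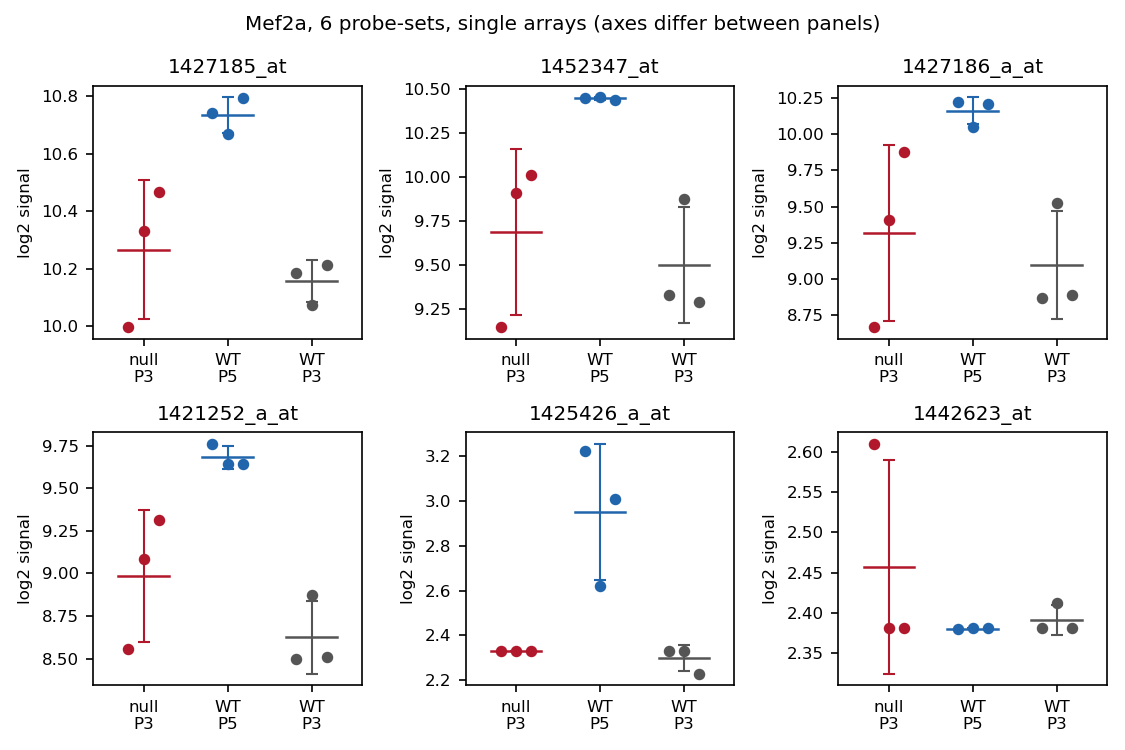
Log2 signal of the 6 Mef2a probe-sets on single arrays (points, replicates 1 to 3 from left to right), with group mean (line) and SD (bar), for null P3, wild type P5 and wild type P3 MEFs; each panel has its own axis, which does not start at 0. In all but 1442623_at the P5 cultures lie above the P3 cultures, and in the 4 bright probe-sets the first null culture is the lowest of its group.

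Mef2c, which is needed for heart and skeletal muscle differentiation, passed the test in no comparison. Its brightest probe-set (1421027_a_at) had 5.15, 5.06 and 5.86 in the null, 5.81, 6.07 and 5.91 at P5, and 4.51, 5.48 and 5.01 at P3. The P5 cultures were above all P3 cultures and the null cultures overlapped both wild type groups. P5 exceeded P3 by 0.93 (SE 0.31, 95% interval 0.20 to 1.67, limma adjusted p = 0.148), and the null differed from P3 by 0.36 (95% interval -0.38 to 1.10, limma adjusted p = 0.777). With the filter on low signals, 3 of the 5 probe-sets passed between P5 and P3, all higher at P5, at adjusted p-values of 0.0288 to 0.0463. Among them 1421028_a_at met the filter mainly through the P5 arrays, where it was high.

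Probe-set 1424852_at of Mef2c was the only one with null values above all P3 values, at 5.08, 4.94 and 5.36 in the null and 4.94, 5.27 and 5.34 at P5, against 4.90, 4.44 and 4.44 at P3. The null and P5 cultures overlapped each other and the first P3 culture was just under both. The null exceeded P3 by 0.53 (SE 0.19, 95% interval 0.09 to 0.98, limma adjusted p = 0.354) and P5 exceeded P3 by 0.59 (SE 0.19, limma adjusted p = 0.131). Probe-set 1421028_a_at ran the other way in the null, with 3.65, 3.78 and 3.46 in the null, 4.03, 5.04 and 4.69 at P5, and 3.90, 3.68 and 4.04 at P3. The null was 0.96 below P5 without overlap (SE 0.26, limma adjusted p = 0.0944). With the same filter on low signals the adjusted p was 0.0169. All null values were below 4 and the probe-set met the filter mainly through the P5 arrays, so the filtered value cannot decide this difference. Without the first P5 culture the adjusted p of the null against P5 was 0.0229, and that of P5 against P3 was 0.0379 in place of 0.199.

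The remaining Mef2c probe-sets, 1451506_at and 1451507_at, differed between P5 and P3 by 0.44 and 0.40, with adjusted p-values of 0.279 and 0.380. All 5 probe-sets had a higher mean at P5 than at P3, and their correlations over the 9 arrays, 0.335 to 0.877, were lower than those of the bright Mef2a probe-sets. When the probe-sets of each gene were averaged before the fit and p-values adjusted over genes, Mef2c was 0.62 higher at P5 than at P3 with a limma adjusted p of 0.0288, Mef2a was 0.71 higher with 0.0203 and Myog was lower with 0.0415. In the fit of all single probe-sets no Mef2c probe-set and not Myog passed, and the directions were the same in both fits.

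Mef2d, a widely expressed member of the family, was the least variable of the 3. Its brightest probe-set (1437300_at) had 7.72, 7.61 and 7.39 in the null, 7.29, 7.43 and 7.38 at P5, and 7.52, 7.15 and 7.90 at P3. The 3 groups overlapped, and the P3 cultures had the widest spread. Probe-set 1434487_at had 7.08, 7.19 and 7.24 in the null, 7.12, 7.12 and 7.19 at P5, and 7.07, 6.63 and 7.05 at P3, so that the null and P5 cultures were above the P3 cultures with the nearest values at 7.08 in the null and 7.07 at P3. The null to P3 difference was 0.25 (SE 0.12, 95% interval -0.04 to 0.54, limma adjusted p = 0.607). The dimmest probe-set, 1421388_at, ranged from 4.77 to 5.36 and had the same value, 4.98, on all 3 P3 arrays.

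Counted over the 24 probe-sets, 1 was higher and 0 lower in the null than at P3, where 1.59% of all probe-sets passed the test (0.898% higher and 0.692% lower). Between P5 and P3, 3 were higher and 0 lower, where 8.62% of all passed (4.29% higher and 4.33% lower). Between the null and P5, 1 was higher and 0 lower, where 7.22% of all passed (3.58% higher and 3.65% lower). By gene, with each represented by its brightest probe-set, 1 of 9 passed in each comparison, against 2.58%, 13.2% and 11.4% of all genes. Groups that did not overlap were counted for 3 probe-sets higher and 0 lower in the null than at P3 (5.57% and 5.31% of all), for 9 higher and 1 lower at P5 than at P3 (11.2% and 10.9% of all), and for 1 higher and 6 lower in the null than at P5 (10.8% and 10.1% of all). Several of these are probe-sets of 1 gene, which are not independent. By gene, with the brightest probe-set, 1 of 9 was higher and 0 lower in the null than at P3, where 8.24% of all genes were higher. The counts were 2 higher and 1 lower at P5 than at P3, and 1 higher and 1 lower in the null than at P5. The median difference of the 24 probe-sets was 0.04 between the null and P3, beside 0 over all probe-sets, and 0 in the other 2 comparisons. The null and P5 groups are both set against the same P3 arrays, so these counts are not independent of each other.

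**Figure D3:**
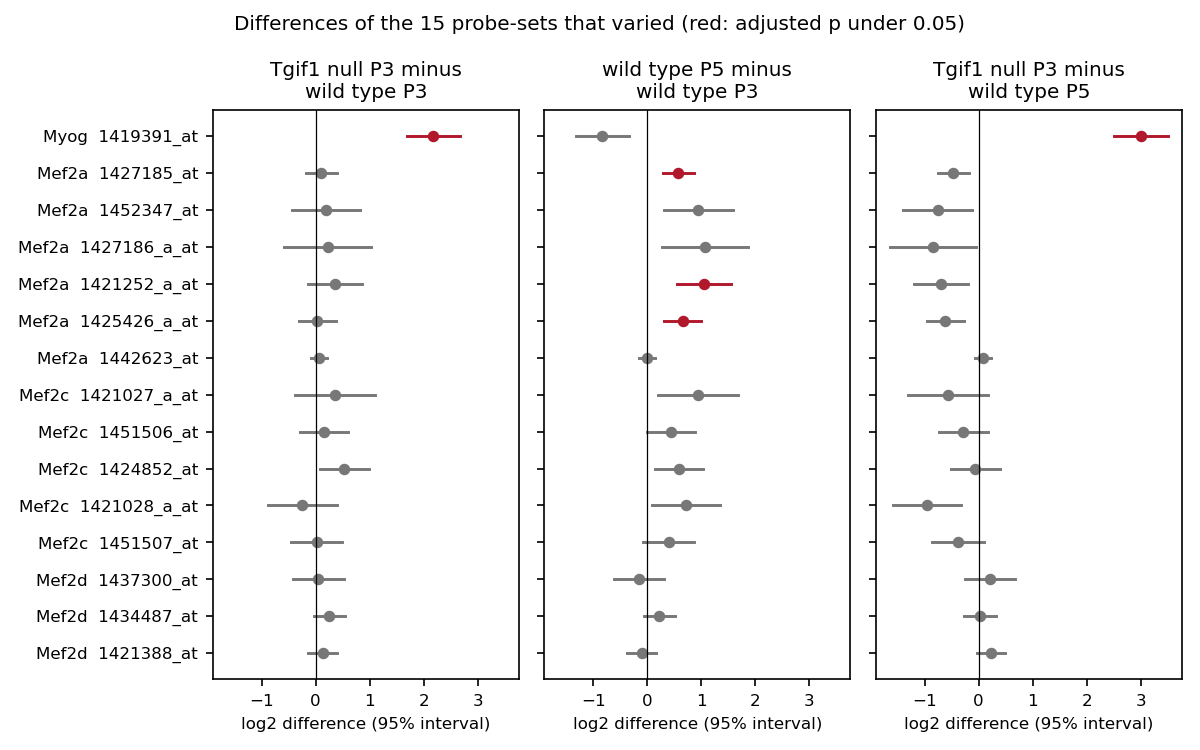
Log2 difference with its 95% interval for the 15 member probe-sets that spanned at least 0.1 over the 9 arrays, for null P3 minus wild type P3, wild type P5 minus wild type P3, and null P3 minus wild type P5; red marks an adjusted p under 0.05. Myog stands at 2.18 and 3.01 in the comparisons that hold the null, and 3 Mef2a probe-sets are red between P5 and P3.

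Muscle genes that the muscle regulatory factors and Mef2 act on were described beside the members, as a list of 40 muscle differentiation genes, most of them contractile, sarcomere or neuromuscular, with the cell cycle regulators Cdkn1a, Cdkn1c and Rb1 among them. In the null, 11 were higher than at P3 and 0 lower (1.51% and 1.07% of all genes), with 29 not past the test, and the median difference was 0.24, beside 0 over all genes. Of the 40, 13 spanned less than 0.1 on the arrays. The 11 were Tnnc2, Tnni1, Myl1, Myh3, Actc1, Myl4, Mylpf, Casq2, Des, Dysf and Chrna1, with differences of 0.93 to 3.14. Without the first or second P3 culture the count was 3 or 7, without the first P5 culture it was 7, and with the 6 null and P3 arrays alone it was 1.

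Tnnc2, the troponin C of fast muscle, had 6.30, 5.71 and 5.51 in the null, against 2.48 on each P5 array and 2.57, 2.57 and 2.96 at P3. All null cultures were far above the wild type cultures, which were close to background. The null exceeded P3 by 3.14 (SE 0.21, limma adjusted p = 0.00424), a size that the background may make too small. Myh3, the embryonic myosin heavy chain, had 8.87, 8.15 and 8.34 in the null, 3.50, 3.58 and 3.48 at P5, and 5.98, 6.27 and 6.07 at P3. The 3 groups were ordered null, P3, P5 with no overlap, as for Myog, and the first null culture was again the highest. Its null to P3 difference was 2.35 (SE 0.19, limma adjusted p = 0.00575) and its P5 to P3 difference was -2.58 (SE 0.19, limma adjusted p = 0.000976).

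Myl1, which encodes a fast-muscle myosin light chain, had 8.74, 8.01 and 7.82 in the null, 3.56, 4.04 and 3.72 at P5, and 5.62, 5.69 and 5.69 at P3, in the same order of groups. Dysf, which encodes the membrane repair protein dysferlin, had 6.28, 6.20 and 6.02 in the null, 6.92, 7.07 and 7.12 at P5, and 5.19, 5.12 and 5.25 at P3, so that both the null and P5 were above P3. Acta1, the skeletal muscle α-actin, was 1.60 higher at P5 than at P3 (SE 0.08, limma adjusted p = 0.000389), and 0.35 above P3 in the null (limma adjusted p = 0.128). Between P5 and P3, 2 of the 40 were higher (Acta1 and Dysf) and 7 lower (Actc1, Myh3, Mylpf, Cdkn1c, Myl1, Tnni1 and Myl4), with 31 not past the test, where 6.13% of all genes were higher and 7.11% lower. Between the null and P5, 12 were higher and 2 lower, where 6.08% of all genes were higher and 5.33% lower.

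Markers of other cells were measured beside these genes. Of 14 macrophage markers, 2 were higher in the null than at P3 and 0 lower, beside 1.51% and 1.07% of all genes. The median difference of the 14 was 0.88. The 2 were Ctss, by 1.89, and Mpeg1, by 1.75 (limma adjusted p = 0.00977 and 0.0264). Mpeg1 was near background at P3, so its size may be an underestimate. Without regard to the test, 9 of the 14 were above P3 without overlap, beside 8.24% of all genes, by 0.58 to 1.89, among them Csf1r (6.84 in the null, 5.17 at P5 and 5.09 at P3) and C1qa (4.63, 2.73 and 2.95 in that order). Between the null and P5, 7 were higher and 0 lower, beside 6.08% and 5.33% of all genes. The mean signal over the 14 was 5.09, 4.51 and 4.63 in the null cultures, 3.70, 3.78 and 3.73 at P5, and 3.88, 3.80 and 3.96 at P3. The mean over the 40 muscle genes was 4.92, 4.70 and 4.68 in the null, 3.77, 3.78 and 3.79 at P5, and 4.11, 4.09 and 4.15 at P3, and the first null culture was the highest in both lists and in Myog. Of the macrophage markers, 10 had a mean above 4 in the null, 6 at P5 and 6 at P3, while Ptprc (2.29, 2.24 and 2.26 in the same order of groups), Itgam and Aif1 (2.23 in each group) were at or near the lowest value. The mean over 8 smooth muscle markers was 10.45, 10.32 and 10.32 in the null, 10.20, 10.20 and 10.44 at P5, and 10.01, 9.82 and 10.02 at P3. Their median difference between the null and P3 was 0.43, and 7 of the 8 were higher in the null without overlap. Acta2 was at a limma adjusted p of 0.0531 and Myh11 at 0.84 above P3. Between P5 and P3 their median difference was 0.37, with 6 of the 8 higher at P5 and 1 lower without overlap. There 3 passed the test, all higher at P5, beside 6.13% of all genes. Between the null and P5 the median difference was -0.02. No marker of 10 endothelial, 9 cardiac, 8 smooth muscle, 8 neuron, 8 neural crest or 8 adipocyte and cartilage genes passed the test between the null and P3, with Col2a1 at 1.08 above P3 (limma adjusted p = 0.0808), and of 12 fibroblast markers only Dcn did, lower in the null by 0.73 on the log2 scale (limma adjusted p = 0.0317). The part of these other cells in the Myog and muscle gene differences was not tested. In RNA from whole cultures, more cells that express a gene and more RNA per cell cannot be told apart.

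**Figure D4:**
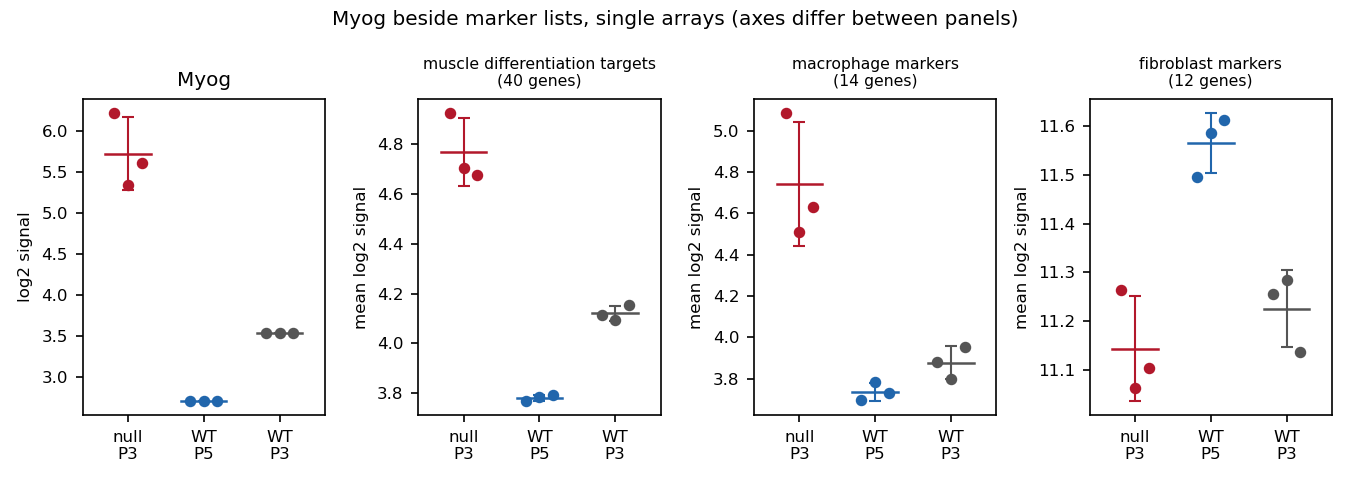
Log2 signal of Myog, and the mean log2 signal over 40 muscle differentiation targets, 14 macrophage markers and 12 fibroblast markers, on single arrays (points, replicates 1 to 3 from left to right), with group mean (line) and SD (bar), for null P3, wild type P5 and wild type P3 MEFs; each panel has its own axis, which does not start at 0. The first null culture is the highest of all 9 for Myog, the muscle targets and the macrophage markers, at 6.21, 4.92 and 5.09.

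The genes that place or restrain the members were counted in the same way. None of 18 regulators upstream of the muscle factors, which include the Eya and Meox genes, passed the test between the null and P3. None passed between P5 and P3 either. Over all genes, 2.58% and 13.2% passed in these comparisons. Of the 18, 8 spanned less than 0.1 on the arrays. Between the null and P5, 0 were higher and 1 lower, beside 6.08% and 5.33% of all genes. The lower one was Eya1, which averaged 6.41 in the null and 7.41 at P5 (limma adjusted p = 0.0345). Of 15 E proteins and co-activators, 0 passed between the null and P3, where 2.58% of all genes did, and 3 were lower at P5 than at P3, where 7.11% were. These were Tcf3, which encodes the E proteins E12 and E47, by 0.48 on the log2 scale (limma adjusted p = 0.0328), the chromatin remodelling ATPase Smarca4 by 0.37 (limma adjusted p = 0.00506) and the homeodomain factor Meis1 by 0.57 (limma adjusted p = 0.0104). Tcf12, another E protein, was between 10.97 and 11.66 on every array.

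Of 27 inhibitors of the muscle factors, 1 was higher and 1 lower in the null than at P3, beside 1.51% and 1.07% of all genes. Nfix, a nuclear factor I protein known for the switch from embryonic to fetal muscle rather than as a direct inhibitor, had 10.91, 11.05 and 11.05 in the null, 11.86, 11.81 and 11.74 at P5, and 11.68, 11.70 and 11.72 at P3. All null cultures were below all wild type cultures, and the null to P3 difference was -0.69 (SE 0.05, limma adjusted p = 0.00424). Bhlhe40, a basic helix-loop-helix repressor, was 0.51 higher in the null (limma adjusted p = 0.0497) and 1.14 higher at P5 (limma adjusted p = 0.00107), each against P3. Mdfi, which binds muscle regulatory factors and holds them in the cytoplasm, had 7.20, 6.79 and 6.76 in the null, 4.99, 5.15 and 5.41 at P5, and 6.25, 5.97 and 5.99 at P3, in the same order of groups as Myog. Its null to P3 difference of 0.85 did not pass (limma adjusted p = 0.0749), and P5 was lower than P3 by 0.89 on the log2 scale (limma adjusted p = 0.0248). Ezh2, the methyltransferase of the Polycomb complex that silences muscle genes in progenitors, was lower at P5 than at P3 by 0.76 on the log2 scale (limma adjusted p = 0.00102). In the whole list, 7 were higher and 3 lower at P5 than at P3, and 3 were higher and 10 lower in the null than at P5. Over all genes, the shares were 6.13% higher and 7.11% lower between P5 and P3, and 6.08% and 5.33% between the null and P5.

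The genes whose signal ran most like that of a member were sought over the 9 arrays among probe-sets that spanned at least 1. For Myog they were Tph1, a tryptophan hydroxylase (Pearson r = 0.995), Tnni1, the troponin I of slow muscle (r = 0.991), and Rasl11b (r = 0.988). Tph1 had 5.66, 5.15 and 5.39 in the null, 2.23 on each P5 array, and 3.25, 3.30 and 3.30 at P3. Tnni1 had 8.59, 7.29 and 7.62 in the null, 3.21, 2.95 and 3.21 at P5, and 4.71, 4.67 and 5.23 at P3, so that the first null culture was the highest for these genes too. For the Mef2a probe-set 1452347_at the nearest were Ttc14, Asah1 and Wdr26 (r = 0.990, 0.989 and 0.987), and for 1421252_a_at they were Fam241a, Taf7 and Nbeal1 (r = 0.987, 0.984 and 0.983). For the Mef2a probe-set 1427186_a_at they were Atxn1, Tnfsf11 and Dusp5 (r = 0.990, 0.981 and 0.976), and for the Mef2c probe-set 1421027_a_at they were Rb1cc1, Dmd and Cyp20a1 (r = 0.964, 0.964 and 0.961). The Mef2c probe-set 1421028_a_at ran most like Nfkbia, Xaf1 and Tmem106a (r = 0.973, 0.962 and 0.955). None of the first 3 genes of one Mef2a probe-set was among those of another. These correlations rest on 9 arrays in 3 groups and describe shared differences between the groups as much as anything within them.

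Promoters of the 40 muscle genes were searched for the same letters, and 33 promoters of 30 of the genes were found. An E-box was present in 84.8% of them and a MEF2 core in 24.2%, beside 72.3% and 9.32% of all promoters of this length. Among the 13 promoters of the 11 genes higher in the null than at P3, the shares were 84.6% and 30.8%. These shares describe short letter matches in small sets and were not tested.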

How the data were processed

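RNA of 9 MEF cultures, 3 a group, was measured on Affymetrix MOE430 2.0 arrays. The deposited table holds a log2 value for each probe-set on each array, which the authors computed with GCRMA (background correction from probe sequence, quantile normalization and summary of probes). GCRMA and limma are named in the submitters' processing notes, and no version of either was given in the sources used here. No further normalization was applied, and the number of arrays limits the precision. P-values set a difference against the spread between cultures, which for Myog came from the null arrays alone. Whether the cultures of a group came from different embryos is not given in the sources used here.

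Probe-sets were named through a platform table and gene numbers: 34958 had 1 symbol, 932 had several and 9211 were not named here. The members, lists and tests were chosen with earlier results of these data known. Group means were fitted to all 9 arrays in R 4.3.3 with limma 3.58.1 (lmFit, contrasts.fit and eBayes at defaults), with Benjamini-Hochberg adjustment over 45101 probe-sets, and a probe-set passed at an adjusted p under 0.05. The fit was tested on simulated data, with changes planted in probe-sets with a mean above 4 and equal spread in every group. That setting does not cover Myog, whose wild type values did not vary. A gene in a list is represented by its probe-set with the highest mean. Except where a member of a count is named after its values were seen (the 11, 7 and 2 muscle genes, Cdkn1a, Rb1, Vim, Ptprc, Itgam and Aif1), named genes are the members, Tgif1, up to 4 genes of each list with the smallest p between the null and P3 and up to 2 between P5 and P3, and the 3 genes most correlated with a member probe-set that spans at least 1. Alternatives were a filter on low signals, another prior, 2 further normalizations, a replicate block, 6 arrays alone, an F test with a log2 difference of 0.5, averaged probe-sets, and each array left out. Promoter sequences are RefSeq's.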

Additional observations from a re-analysis of the deposited data

How the results depend on the processing

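The Myog difference between the null and P5 passed under all 16 alternatives run, and the one between the null and P3 under 14, with largest adjusted p 0.0455 among fits without 1 array (the first P3 array) and 0.0868 with the 6 null and P3 arrays alone. Among those alternatives, Myog met the filter on low signals only through the null arrays. Member probe-sets past the test between the null and P3 numbered 0 instead of 1 with those 6 arrays, as did members, and 1 throughout when 1 array was left out. Between P5 and P3 they numbered 8 with a filter on low signals, among them Myog and Mef2c 1421028_a_at, which met it mainly through 1 high group. They numbered 0 with a prior that follows the signal and 1 with the F test rule, instead of 3, and 0 to 5 with 1 array left out. By gene, the count there was 1, and it was 3 with the filter, 0 with that prior, 2 with median centring, 2 with 6 arrays alone, 3 with averaged probe-sets, and 0 to 2 with 1 array left out: 0 without any 1 wild type array and 2 without the first null array. Myog is in the counts with the filter and with 6 arrays alone, which cannot decide its P5 to P3 difference. Between the null and P5, member probe-sets numbered 5 with the filter and 2 with centring instead of 1 (the added ones, of Mef2a and Mef2c, lower in the null, and the Mef2c one met the filter mainly through P5), and 1 to 2 with 1 array left out, and members 2 with the filter and 1 to 2 with 1 array left out.

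Muscle targets higher in the null than at P3, 11 in all, numbered 5 with the other prior, 1 with 6 arrays alone and 3 to 9 with 1 array left out; those lower at P5 numbered 6 to 7, and those higher in the null than at P5 numbered 11 to 13. Alternatives for the muscle targets were chosen after seeing the data. Over all probe-sets, 717 passed between the null and P3, and 1563 with the filter, 59 with the other prior, 123 with 6 arrays alone, 256 with the F test rule and 255 to 659 with 1 array left out. For P5 against P3, 3889 passed, and 6035, 1297, 2957 and 674 under those settings, and 2076 to 4161 with 1 array left out. For the null against P5, 3258 passed, and 5246, 1071, 2025 and 659, and 1753 to 3343 with 1 array left out.

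Equal replicate numbers gave no clear sign of paired samples. Deviations of same-numbered arrays correlated between -0.419 and 0.31, beside -0.538 to 0.545 for arrays with unlike numbers. With 3 arrays a group these correlations cannot exclude pairing. With the replicate block, 141 probe-sets passed between the null and P3, 2247 between P5 and P3 and 1763 between the null and P5. Member probe-sets and members past the test then numbered 0 between the null and P3, 0 between P5 and P3, and 1 between the null and P5, and muscle targets higher in the null than at P3 numbered 1. The adjusted p of Myog between the null and P3 was 0.0606 with the block.

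The sign turned in 7 differences, none of which passed the test. With 1 array left out, the null minus P3 difference ran from -0.059 (without null P3 replicate 3) to 0.55 for Mef2a 1427186_a_at, -0.010 (without null P3 replicate 1) to 0.10 for Mef2a 1442623_at, -0.024 (without null P3 replicate 3) to 0.30 for Mef2c 1451506_at, -0.14 (without wild type P3 replicate 2) to 0.24 for Mef2d 1437300_at. The P5 minus P3 difference ran from -0.34 (without wild type P3 replicate 2) to 0.034 for Mef2d 1437300_at. The null minus P5 difference ran from -0.18 (without wild type P5 replicate 1) to 0.036 for Mef2c 1424852_at and from -0.0085 (without null P3 replicate 3) to 0.071 for Mef2d 1434487_at. Normalizing by quantiles again made it 0.0027 for Mef2c 1424852_at.

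The repeated values of Myog in both wild type groups and the lowest value of 2.23 limit what the arrays show of the dim members, and 3 arrays a group limit the rest. The causes of these changes were not tested.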
